A study of Mus musculus with 4 samples.

Results

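Dendritic cells (DCs) matured with lipopolysaccharide (LPS) were compared between mice lacking both liver X receptors (LXRs) and wild-type mice, within an array series on these receptors and the chemotaxis of DCs. The pair was taken by group label, the LXR-DKO LPS array against the WT LPS array, so that it holds 2 of the 4 samples of the series, 1 array for each group. All 34945 probe sets that were no array controls and had a single gene symbol entered, out of 45101 on the array. The brightest probe set by its mean over the 4 arrays stood for its gene, which gave 18193 genes.

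The cells were primary DCs grown from bone marrow for 6 to 7 days with the growth factor GM-CSF at 20 ng/mL, of which the non-adherent cells were enriched with magnetic beads for CD11c, an integrin of DCs. The WT LPS and the LXR-DKO LPS cultures were then kept for 24 h with GM-CSF at 10 ng/mL and LPS at 100 ng/mL. Their controls, cultures of both genotypes given GM-CSF without LPS for the same time, formed the other pair of arrays and are used below only to show where the difference with LPS departs from that without it. LXR-DKO stands for the combined deficiency of LXRα and LXRβ, and the strain was given as C57/BL6 for all 4 samples. The part of each gene that was deleted, the sex, age and number of the mice, and whether cells of several mice were pooled are not given in the sources used here.

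LXRs are nuclear receptors that bind oxysterols, the oxidised forms of cholesterol. With their partner RXR they switch on genes for cholesterol export, for lipoproteins and for fatty acid synthesis, and in macrophages they are known to restrain inflammatory genes. DCs that sense LPS through Toll-like receptor 4 pass from a phagocytic, antigen-collecting state to a mature one, in which they show antigen on MHC class II, carry costimulatory ligands, and follow the receptor Ccr7 to the lymph node. Cultures grown from bone marrow with GM-CSF are known to hold macrophage-like and granulocytic cells beside DCs.

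The values are MAS5 signals, linear brightness values that compare 1 probe set between arrays and not 1 gene with another. A signal of 28.9, the pooled median, served as the floor, and a gene was called measured when at least 1 array of the pair reached it. Where the other array lay below, its value was set to the floor and the ratio is given as "at least". With 1 array a group no difference has a replicate error, no test was made, and precision is limited by how few arrays there are. How far probe sets for 1 gene differed in log2 ratio, an SD of 0.54 over 4584 genes, is an error within the arrays that leaves out the variation between cultures and mice. The trimmed means of the arrays were equal, and the share of probe sets at the floor or brighter lay between 47.8% and 52.6%. The 18S ribosomal probe set for the 5′ end had a signal of 2025.2 in WT LPS and 69.5 in LXR-DKO LPS, and the B1 repeat probe set one of 5943.5 and 1401.8. The ratios of the 3′ to the 5′ actin probe sets were alike, at 1.26 and 1.28. The part of these array features in the results below was not tested.

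With LPS, far more genes were higher than lower in the cells without LXRs. Of 12014 genes measured, 2141 had at least 2-fold more signal in LXR-DKO than in WT, 17.8% of those measured, and 1053 had at least 2-fold less, 8.76%. Together these made up 26.6%. The shares of 17.8% and 8.76% are the background for each count of list members with LPS below. The excess grew with the size of the difference. At 8-fold there were 230 genes higher and 59 lower, and at 32-fold 30 and 0. The median log2 ratio was 0.15 over all measured genes, the central 90% of them ran from -1.36 to 1.93, and 1847 of the ratios were limits because 1 array lay below the floor. In bulk RNA of a culture, more cells of a type and more RNA per cell cannot be told apart, here or below.

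The direction of this excess depended on how the arrays were scaled. Genes higher made up 67.0% of the genes past 2-fold with the deposited scaling, 58.5% after centring on the median ratio, 55.4% after quantile normalization, 47.1% when the arrays had the same 75th percentile, and 83.3% when they had the same level of hybridisation controls. Among genes at or above the floor on both arrays the median log2 ratio was 0.13 as deposited, -0.15 with the same 75th percentile and 0.42 with the hybridisation controls. Ratios are given as deposited, and those no larger than these shifts are not read as a direction. Among called genes with more than 1 probe set reaching the floor, all probe sets had the same sign in 872 of 1001 genes called higher and in 470 of 565 called lower.

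**Figure D1:**
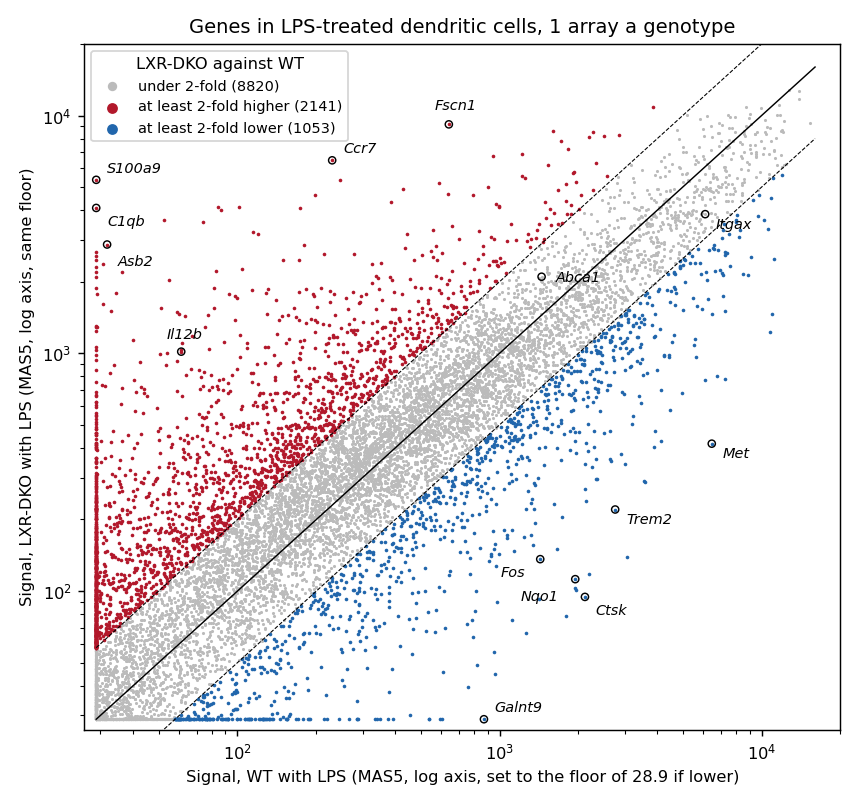
MAS5 signal of each measured gene on the WT LPS array (x axis) and the LXR-DKO LPS array (y axis), both log axes, with values under 28.9 set to it; points are genes, the solid line marks equal signals and the dashed lines 2-fold. The 2141 genes at least 2-fold higher (red) reach farther from the line of equal signals than the 1053 at least 2-fold lower (blue), and Ccr7 and Fscn1 lie far above it while Met, Ctsk and Nqo1 lie far below.

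The targeted gene Nr1h3, which encodes LXRα, had a signal of 54.5 in WT LPS and 27.0 in LXR-DKO LPS. It was at least 1.89-fold lower, the second value lying under the floor, and without LPS the signals were 108.6 and 40.4. The position of its only probe set relative to the deleted part is unknown, so the low value does not check the label by itself. Nr1h2, the LXRβ gene, lacked a probe set of its own symbol alone and was not analysed here. The 15 measured genes on either side of each locus differed in number of calls. Of the 30 around Nr1h3, 3 were at least 2-fold higher and 1 lower, and of the 30 around Nr1h2, 13 were higher and 1 lower. Over all measured genes 17.8% were higher and 8.76% lower. Among the 13 were several kallikrein genes and Spib, Pold1 and Napsa. The kallikrein genes have near-identical copies that share probes, so their calls are not separate readings. Sex-linked genes differed too. The RNA of the inactive X chromosome, Xist, had a signal of 22.7 in WT LPS and 2090.4 in LXR-DKO LPS, and of the Y-linked genes Uty had 291.1 and 128.6, Eif2s3y 721.0 and 384.3, and Kdm5d 98.1 and 93.2. Whether the neighbourhood of the loci or the sex of the mice has a part in any difference below was not tested.

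The highest ratios with both arrays above the floor rest on WT signals close to it, so their size and order depend on the floor. Highest was Asb2, a subunit of a ubiquitin ligase that acts on actin-binding filamins, with 31.8 in WT LPS and 2868.0 in LXR-DKO LPS, a 90.2-fold difference. With the higher floor of 177.4 its log2 ratio of 6.49 became a limit of 4.02, that of Gbp2b went from 6.28 to 3.75 and that of Asgr2 from 5.93 to 3.32. The guanylate binding protein gene Gbp2b followed at 77.6-fold, the cysteine protease inhibitor gene Stfa3 at 69.5-fold, the asialoglycoprotein receptor subunit gene Asgr2 at 60.8-fold and Ifitm6, of the interferon-induced transmembrane family, at 60.8-fold. Aif1, an actin-binding protein of myeloid cells, had 34.4 and 1793.2, a 52.1-fold difference. Mgl2, a galactose-binding lectin of DCs, had 86.2 and 3988.9, a 46.3-fold difference. Further down stood Lad1 at 46.0-fold, the kallikrein gene Klk1b11 at 41.1-fold, Plac8 at 37.2-fold and Pltp, the phospholipid transfer protein, at 30.4-fold. The immunoglobulin genes Ighm, Igha and Iglv1 were 48.9-fold, 48.6-fold and 44.6-fold higher, though 1 of the 8 probe sets of Ighm went the other way past 2-fold. Xaf1 was 52.4-fold higher by its brighter probe set while its other probe set had a log2 ratio of -5.25, so its direction is unsettled. Gbp2b, Stfa3, Klk1b11 and the immunoglobulin genes have near-identical copies that share probes, and their ratios cannot be given to a single copy.

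Genes under the floor in WT LPS gave limits of the same size. The calgranulin gene S100a9 had signals of 24.8 and 5366.3, at least 186-fold higher. The 3 chains of complement C1q, which tags dying cells and immune complexes for uptake, were next. C1qb had 1.8 and 4087.0 (at least 141-fold higher), C1qa 1.5 and 2680.3 (at least 92.7-fold) and C1qc 0.8 and 2566.9 (at least 88.8-fold). The others were the adhesion gene Nectin3 (at least 85.2-fold), the neutrophil granule gene Ngp (at least 79.9-fold), Retnla (at least 76.3-fold), Xist (at least 72.3-fold), the integrin gene Itgae (at least 64.9-fold) and Ifi202b (at least 45.0-fold), whose level is known to vary between mouse strains.

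Among the lowest genes, Rgcc, a cell cycle regulator, had 1798.4 in WT LPS and 78.7 in LXR-DKO LPS, 22.9-fold lower. The cathepsin gene Ctsk, a collagen-cutting protease, had 2118.3 and 94.5, 22.4-fold lower. The coagulation factor gene F7 had 3070.0 and 139.1, 22.1-fold lower. Casp4, the caspase that senses intracellular LPS, was 21.5-fold lower, the late endosomal GTPase gene Rab7b 19.4-fold, the zinc importer gene Slc39a2 18.9-fold, the aldo-keto reductase gene Akr1b8 18.7-fold and the quinone reductase gene Nqo1 17.3-fold. The adhesion gene Flrt2 was 19.0-fold lower, the thyroid hormone deiodinase gene Dio2 16.8-fold, the hepatocyte growth factor receptor gene Met 15.5-fold and Cav1, the coat protein of caveolae, 15.3-fold. Rpgrip1, Ttll11 and Gpr176 completed the 15, at 19.2-fold, 17.1-fold and 15.1-fold lower. Under the floor in LXR-DKO LPS were the glycosyltransferase gene Galnt9, at least 30.2-fold lower, the chaperone genes Fkbp9 and Fkbp11, at least 21.0-fold and 13.6-fold, the deubiquitinase gene Uchl1, at least 20.5-fold, and the fatty acid carrier gene Fabp3, at least 18.7-fold. The other probe set of Fkbp11 had a log2 ratio of -0.25 and that of Fabp3 one of -0.31. Trim34a, at least 18.7-fold lower, had another probe set with a log2 ratio of 1.13. The glutathione transferase genes Gsta2 and Gsta3, at least 13-fold and 11.8-fold lower, Cyp4a12a, at least 12.1-fold, and the endothelin receptor gene Ednrb, at least 11.6-fold, closed this group.

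Most maturation and lymph node homing genes were higher in LXR-DKO LPS. Of 23 measured members of 24 on the array, 18 were at least 2-fold higher and 0 lower, and the median log2 ratio was 2.05, beside 17.8%, 8.76% and 0.15 over all genes. Ccr7, the lymph node homing receptor, had 229.8 in WT LPS and 6482.5 in LXR-DKO LPS. Fscn1, which bundles actin in the dendrites of mature DCs, had 640.6 and 9182.7. Marcksl1, a membrane-to-actin adaptor, had 427.2 and 4910.6. For Ccr7, Fscn1 and Marcksl1 the LXR-DKO LPS signal was also the highest of all 4 arrays, and the WT signals with and without LPS differed by at most 1.56-fold.

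Most surface and signalling genes of mature DCs were higher with LPS too. Cd83, which stabilises MHC class II at the surface, had 384.9 and 4335.3, an 11.3-fold difference. Cd86, a costimulatory ligand for T cells, had 656.7 and 3422.1, a 5.21-fold difference. Icosl, the ligand of the T cell receptor Icos, had 33.0 and 422.6, a 12.8-fold difference. The other costimulatory ligands Tnfsf4, Cd40 and Cd80 had log2 ratios of 1.93, 1.64 and 1.35. Relb, the NF-kappaB subunit of mature DCs, stood at 2.64, and the chemokine genes Ccl22 and Ccl17, which draw T cells, at 2.44 and 1.54. Not every member of the list took part. Birc3 stood at 0.36, Cd200, an inhibitory ligand, at 0.83, and Cd274, which encodes the inhibitory ligand PD-L1, was the only member below 0, at -0.65.

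Cd80 and Cd200 differed between the pairs. Cd80 had 234.2 in WT and 227.6 in LXR-DKO without LPS, against 226.6 and 576.2 with LPS. Cd200 had 775.0 and 112.5 without LPS and 1023.2 and 1815.8 with it. As a list, the maturation genes had a median of 1.78 without LPS, where 13 of 23 were at least 2-fold higher, against 12.7% of all genes measured there.

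The maturation list also held promoters with NF-kappaB letters. RefSeq promoter windows of the assembly GRCm38.p6, 250 bases before and 50 after each start site, were found for 15 of its members. The letters GGGA and CC with a gap of 4 bases between them, read on both strands, occurred in 8 of the 15, 53.3%, against 26.3% of the 9759 measured genes with a window. Over all genes at least 2-fold higher with LPS the letters occurred in 26.3% of 1694 windows.

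MHC class II genes and conventional DC markers had medians of the same order. Of the 14 MHC class II members 10 were higher by at least 2-fold and 1 lower, the median being 1.87. Ciita, the master regulator of the class, had 42.9 and 718.5, a 16.7-fold difference, and Rfx5, a DNA-binding regulator, stood at 1.84. The peptide-exchange genes H2-DMb2, H2-Ob and H2-Oa had log2 ratios of 4.56, at least 5.20 and 2.87. The chains that hold peptide, H2-Ab1, H2-Aa, H2-Eb1 and H2-Eb2, had 2.19, 1.5, 1.91 and at least 1.91. The invariant chain Cd74 differed less, at 0.43. Marchf1, a ubiquitin ligase that sends MHC class II to breakdown, was the member at least 2-fold lower, with 1881.5 and 670.5, and the antigen-cutting protease gene Ctss had -0.89.

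Among conventional DC genes, 16 of 25 measured of 28 on the array were higher by at least 2-fold and 1 lower, the median being 1.89. Itgae, the integrin of a DC subset, had 26.9 and 1874.8, and Dpp4, a surface peptidase, 8.8 and 937.4. The transcription factor genes Zbtb46, Irf8 and Irf4 had log2 ratios of 3.76, 3.15 and 2.10. The lectin genes Mgl2 and Clec10a stood at 5.53 and 4.26, the adhesion gene Epcam at least at 4.06 and the inhibitory receptor gene Btla at 3.30. Itgax, which encodes CD11c, the marker of the enrichment, had 6093.0 and 3848.1, a ratio of -0.66, and was high on every array, so both cultures carried the marker they were selected for. Cadm1, an adhesion gene of the subset that also carries Xcr1, was lower at -1.65, and Xcr1, Cd207 and Cd209d lay under the floor on both arrays.

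**Figure D2:**
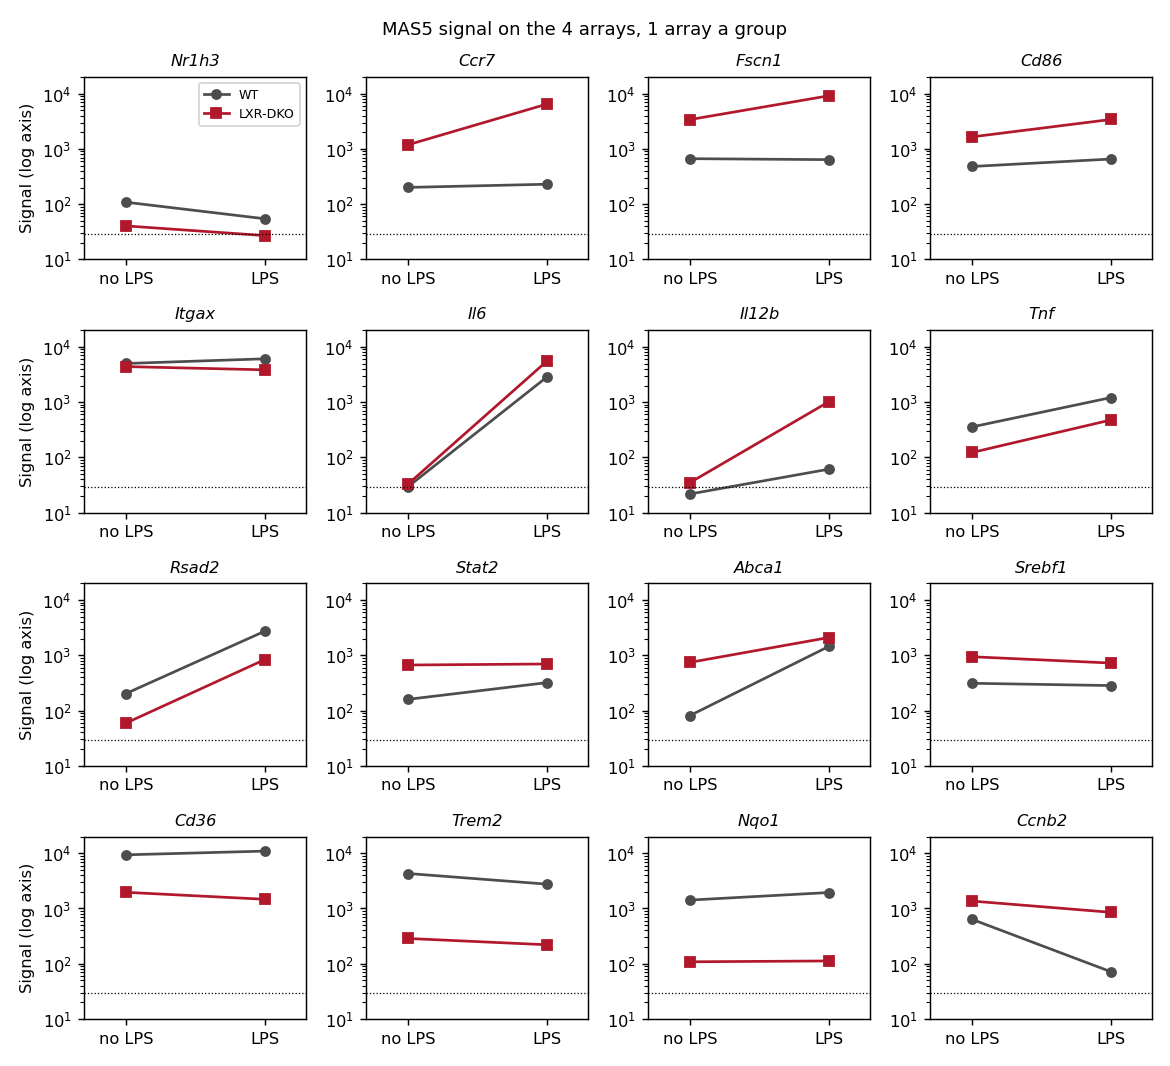
MAS5 signal (log axis) of 16 genes without and with LPS in WT (grey circles) and LXR-DKO (red squares), each point 1 array; the dotted line is the floor of 28.9. With LPS Ccr7 and Il12b lie far apart, at 229.8 against 6482.5 and 61.0 against 1016.2, Abca1 comes closer, at 1447.2 against 2099.5, and Cd36, Trem2 and Nqo1 are lower in LXR-DKO on both of its arrays.

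Genes of cell movement were mixed below the level of Ccr7. Of 25 measured chemoattractant receptors, of 30 on the array, 8 were at least 2-fold higher and 3 lower, against 17.8% and 8.76% of all genes, and the other 14 lay within 2-fold. Their median was 0.04, and below 0 after centring, after quantile normalization, with the same 75th percentile, with the higher floor and without X and Y genes. The prostaglandin receptor gene Ptger4 had 573.2 and 2827.8 while its relative Ptger2 had 947.3 and 270.0. The monocyte receptor gene Ccr2 had 165.2 and 795.2. The follicle-homing receptor gene Cxcr5 had 15.6 and 200.6, the sphingosine receptor gene S1pr4 23.3 and 191.2, and C3ar1, the receptor of complement C3a, 3085.8 and 1003.8. Cxcr4, whose ligand guides cells within bone marrow, had 869.6 and 895.2 and so hardly differed.

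Of the chemokines, 7 of 22 measured were higher by at least 2-fold and 1 lower, against 17.8% and 8.76% of all genes. Their median was 0.24. The membrane-bound chemokine Cx3cl1 had 31.3 and 731.4. Ccl24, which draws eosinophils, had 3.4 and 621.4. Chemokines that attract neutrophils and monocytes were not uniform. Cxcl1 had 2569.0 and 5564.4, Ppbp was 5.56-fold higher and Ccl12 at least 2.6-fold higher. The others named here were near equal with LPS. Cxcl2 had 7309.4 and 7400.4, Ccl2 2340.3 and 2227.1, and Ccl5 6830.4 and 8451.2. Cxcl2, Ccl2 and Ccl5 had log2 ratios of -2.01, -4.06 and 3.12 without LPS. Ccl4 was lower in both pairs, with 2411.4 and 1011.9 with LPS and 1998.8 and 218.2 without.

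Genes of the cytoskeleton were at least 2-fold higher more often than lower, as were all genes measured, at 17.8% and 8.76%. Of 42 actin and migration genes 17 were higher by at least 2-fold and 3 lower, the median being 0.69. Higher were genes that regulate the cytoskeleton, namely Tiam1 at 2.56, Swap70 at 2.32, Vav3 at 1.93, Elmo1 at 1.71, and Fgd2 at least at 3.79. The other probe set of Tiam1 had 0.23. Rhof, a GTPase of filopodia, stood at 2.63 and Pik3cg, the lipid kinase downstream of chemokine receptors, at 2.19. Actin itself was about equal, with 9415.9 and 8375.7 for Actb. Rhob, a GTPase of endosomes, was the lowest, with 4543.5 and 1117.7.

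Of the 19 integrins and ligands measured, 9 were higher by at least 2-fold and 1 lower, against 17.8% and 8.76% of all genes. Their median was 0.47. Beside Itgae the higher ones included its partner Itgb7 at 2.88, Itga4 at 2.10, Itga5 at 1.41 and the selectin ligand gene Selplg, with 1387.2 and 3297.3. Itga4, Itga5 and Itga6 differed little without LPS, at -0.11, 0.11 and 0.10. Itgam, which encodes CD11b, was lower, with 3447.0 and 1067.7. The 20 matrix proteases and inhibitors measured went both ways, 5 higher and 6 lower, with a median of -0.25. Mmp9, a gelatinase, had 92.3 and 749.8 and Adam19 40.6 and 572.8, while Mmp19 had 1131.0 and 146.8, the urokinase receptor gene Plaur 5689.5 and 1579.9, and the membrane collagenase gene Mmp14 2207.9 and 819.2.

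Inflammatory cytokine genes divided. Of 28 measured, 10 were higher by at least 2-fold and 8 lower, against 17.8% and 8.76% of all genes. Their median was 0.64. The 4 subunit genes of the interleukin 12 family named here were all higher. Il12b, which encodes the shared p40 chain, had 61.0 and 1016.2, a 16.7-fold difference, and 21.7 and 34.9 without LPS. Il12a, the p35 chain, had 227.8 and 502.3, Il23a, the p19 chain, 13.7 and 104.5, and Ebi3, which pairs with other chains of the family, 472.9 and 2466.5. Each of the 4 subunit genes was thus at least 2.21-fold higher in LXR-DKO LPS. The iron hormone gene Hamp had 149.7 and 2479.1, Lif, of the interleukin 6 family, 32.3 and 234.2, and Il15 76.0 and 322.7.

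The classical early cytokines were not among them. Il6 had 2828.7 and 5492.0, just under 2-fold apart. Tnf had 1208.6 and 475.2, 2.54-fold lower in LXR-DKO LPS. Il1b had 9011.6 and 7211.8, close to equal. Il1a and the receptor antagonist Il1rn were lower at -1.48 and -1.33, the pentraxin gene Ptx3 at -1.42, the activin subunit gene Inhba at -1.35 and the macrophage growth factor gene Csf1 at -1.30. Il1f9, which encodes the epithelial cytokine IL-36γ, was the lowest, with 3588.9 and 287.4. Ifnb1 lay under the floor on both arrays.

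Cytokine receptors and TNF family genes included several of lymphoid use. Of 31 receptors and feedback genes 11 were higher by at least 2-fold and 5 lower, against 17.8% and 8.76% of all genes. Their median was 0.32. Il2ra, the alpha chain of the interleukin 2 receptor, had 81.0 and 1878.3, and Il18r1 and Il18rap, the chains of the interleukin 18 receptor, 8.3 and 478.9, and 18.3 and 461.9. The decoy receptor gene Il1r2 had 171.5 and 2464.5. Both chains of the type I interferon receptor were lower, Ifnar1 at -1.24 and Ifnar2 at -1.06, though another probe set of Ifnar2 went the other way past 2-fold, and Ifngr2 was lower at -1.38. Of 19 TNF superfamily members measured, 6 were higher and 3 lower, with a median of 0.26. Ltb, which encodes lymphotoxin beta, had 42.3 and 920.5, Cd70 14.2 and 217.6, and the costimulatory receptor gene Tnfrsf9 997.2 and 4158.3, while Tnfrsf12a had 262.2 and 47.2.

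Counts for genes of signal transduction are set beside those over all genes, 17.8% at least 2-fold higher and 8.76% lower. Of 24 NF-kappaB and MyD88 pathway genes 6 were higher by at least 2-fold and 2 lower, the median being 0.28 that was -0.02 with the same 75th percentile. The genes of the noncanonical arm were at the top, the kinase gene Map3k14 at 2.47, Bcl3 at 2.21 and Nfkb2 at 2.15, and Ikbkg, the regulatory subunit of the IKK complex, was lowest at -1.30. Among Toll-like receptor genes 1 of 15 was higher and 4 lower, with a median of -0.57. Tlr4, the LPS receptor, had 1165.1 and 563.0 and its coreceptor Cd14 10288.6 and 9570.3, whereas the receptors for RNA Tlr7 and Tlr13 stood at -2.47 and -2.15. The other probe set of Tlr7 had -0.19. Ly86, a partner of Cd180, was the exception at 3.24. Early-response genes had a median of 0.06, with 8 of 33 higher and 5 lower, and below 0 under 4 of the alternatives. Fos, of the AP-1 complex, had 1430.0 and 136.2 while the phosphatase gene Dusp5 had 140.0 and 1680.1. Of 14 prostaglandin and leukotriene genes, 4 were higher and 3 lower, with a median of -0.14 that was above 0 under 4 alternatives. The leukotriene-forming enzymes were among those higher, Alox5 with 130.9 and 1062.4 and Ltc4s with 239.9 and 1176.5, and the cyclooxygenase gene Ptgs2 had 3173.5 and 2219.1.

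Antiviral genes were lower more often than higher. Of 33 type I interferon stimulated genes 13 were at least 2-fold lower and 4 higher, 39.4% against 8.76% of all genes lower, and the median log2 ratio was -0.48. Oasl2, of the oligoadenylate synthetase family, had 1855.4 in WT LPS and 469.3 in LXR-DKO LPS. Trim30a, a ubiquitin ligase, had 2353.2 and 706.2. Rsad2, which encodes the antiviral enzyme viperin, had 2724.8 and 834.6. Their log2 ratios of -1.98, -1.74 and -1.71 kept their sign under all alternatives run, though the other probe set of Trim30a had -0.27. Ifi204, Oas1a, Rtp4, Bst2, Oas3 and Ifit1 stood between -1.72 and -1.14. The other probe set of Rtp4 had -0.54.

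The transcription factors that drive these genes varied. Stat2, which carries the interferon signal to the nucleus, had 319.7 and 696.7, at 1.12, and Irf9 and Irf7 had 0.57 and -0.21. Mx1, an antiviral GTPase, had 59.9 and 1467.6, at 4.61, and the nuclear body gene Sp100 stood at 1.27. The other of the 4 was Xaf1, with its opposed probe sets. Without LPS, 9 of 31 members were higher by at least 2-fold and 4 lower, the median being 0.22. The median response to LPS of these genes was 2.25 in WT and 1.61 in LXR-DKO, on the log2 scale. The ratios with and without LPS were not tested against each other. The 10 interferon-inducible GTPase genes had a median of -0.03, or 0.29 with the hybridisation controls, with Gbp2 at -1.72 and Gbp8 at 2.08. Of the 6 Schlafen genes measured, which curb proliferation, 3 were higher and 2 lower. Their median of 0.16 was below 0 under 3 of the alternatives, with Slfn4 at 3.26 and Slfn5 at -1.73.

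Interferon stimulated genes are known to carry promoter elements in which the letters GAAA are repeated after a gap of 2 bases, read here on either strand. These letters occurred in 11 of the 23 members with a promoter window, 47.8%, against 3.04% of the measured genes with a window and 3.49% of all 27025 windows. Of the 11 genes, 7 were at least 2-fold lower and 1, Stat2, was higher, where the whole list had 13 of 33 lower and 4 higher. Over all windows of genes at least 2-fold lower with LPS the letters occurred in 4.48%, and over those at least 2-fold higher in 3.48%. The 250 bases before the start site are shown 5′ to 3′ for 2 of the 7 and for Stat2 because they hold the same element and have opposite ratios. Capitals mark the match, which lies on the reverse strand in all 3 and is a description of letters, not of binding. The sequences are RefSeq's on GRCm38.p6, for Trim30a at chr7:104465194-104465443 on the minus strand, for Rsad2 at chr12:26456453-26456702 on the minus strand and for Stat2 at chr10:128270248-128270497 on the plus strand.
Trim30a: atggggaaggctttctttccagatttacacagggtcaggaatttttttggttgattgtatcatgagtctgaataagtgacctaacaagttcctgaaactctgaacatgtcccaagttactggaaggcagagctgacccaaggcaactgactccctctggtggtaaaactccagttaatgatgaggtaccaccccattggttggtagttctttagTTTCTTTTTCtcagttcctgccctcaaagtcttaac
Rsad2: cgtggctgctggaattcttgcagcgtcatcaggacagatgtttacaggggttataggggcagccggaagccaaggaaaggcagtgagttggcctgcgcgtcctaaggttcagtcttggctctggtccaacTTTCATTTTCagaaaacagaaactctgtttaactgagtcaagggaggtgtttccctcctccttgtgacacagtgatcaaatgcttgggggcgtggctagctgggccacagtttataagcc
Stat2: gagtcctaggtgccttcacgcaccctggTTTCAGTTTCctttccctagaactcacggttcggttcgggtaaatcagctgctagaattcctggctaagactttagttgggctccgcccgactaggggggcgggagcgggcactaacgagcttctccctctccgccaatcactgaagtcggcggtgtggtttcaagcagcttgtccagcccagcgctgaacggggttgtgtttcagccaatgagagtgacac
The element begins 36 bases before the start in Trim30a, 120 in Rsad2 and 222 in Stat2.

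Known LXR targets of cholesterol export were not lower as a group. Of 16 measured, of 18 on the array, 5 were at least 2-fold higher and 4 lower, against 17.8% and 8.76% of all genes. The median was 0.27, but below 0 with the same 75th percentile, with either other floor and with probe sets without a suffix. Pltp had 51.0 and 1552.7, and the lipoprotein genes Apoc2 and Apoe 77.7 and 1039.1, and 10.8 and 299.4. Abca1, the cholesterol exporter, had 1447.2 and 2099.5 with LPS, a ratio of 0.54, against 81.1 and 744.9 without it, a ratio of 3.20. Its transporter partner Abcg1 had 1506.6 and 1197.3. Lower were genes of lipid droplets and of lipid handling in the lysosome, Plin2 with 6915.1 and 2242.4, Smpdl3a with 1823.0 and 732.7 and Npc1 with 810.8 and 399.8, and the lipoprotein lipase gene Lpl with 11919.9 and 5629.9. LXRs are known to bind the DR4 element, the letters AGGTCA repeated in the same direction after a gap of 4 bases. These exact letters occurred in 0 of the 9759 windows of measured genes and in 3 of all 27025 on either strand. Sites that differ by a letter or lie outside the windows were not searched for, so the counts do not show which genes lack LXR sites. A single AGGTCA occurred in 3 of 12 windows of this list, 25%, against 12.3% of measured genes.

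Part of the genes that make fatty acids and cholesterol were higher, against 17.8% of all genes. Of 17 fatty acid synthesis genes measured 6 were higher by at least 2-fold and 1 lower, the median being 0.50. Srebf1, the transcription factor of this pathway and itself a known LXR target, had 283.2 and 724.6, a 2.56-fold difference. Fasn, the synthase, had 309.2 and 1782.1, and Scd1, the desaturase, 129.9 and 1464.4. Fads2 and Elovl6, which desaturate and elongate, had log2 ratios of 2.62 and 2.53, and Acaca, the first step, 1.59. The malic enzyme gene Me1, which supplies NADPH, had 289.9 and 68.1 and so went the other way.

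Of the 19 cholesterol synthesis and uptake genes 8 were higher by at least 2-fold and 0 lower, against 17.8% and 8.76% of all genes. Their median was 0.78. Srebf2, their transcription factor, had 197.3 and 1052.9. The carrier gene Stard4 stood at 1.85, and the enzyme genes Idi1, Pmvk, Fdps, Mvk, Dhcr7 and Hmgcs1 between 1.05 and 1.66. Insig2, which holds back the SREBP factors, was the lowest at -0.83. Among 7 oxysterol genes measured 2 were higher and 2 lower, with a median of -0.50 that was 0.07 with the lower floor. Gpr183, the receptor that guides DCs along oxysterols, had 63.5 and 808.9, Cyp27a1, an oxysterol-forming enzyme, 83.8 and 287.0, and Ch25h, which makes 25-hydroxycholesterol, 223.6 and 235.5. The oxysterol-binding genes Osbpl3 and Osbpl8 stood at -1.62 and -1.23.

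Genes of fatty acid uptake and storage included strongly lower members. Of 18 genes of the PPAR gamma list 2 were higher by at least 2-fold and 6 lower, against 17.8% and 8.76% of all genes. Their median of -0.23 was 0.09 with the hybridisation controls. Cd36, a fatty acid importer, had 10947.9 and 1469.2. The lipid droplet gene Hilpda had 2116.2 and 341.2. Lipa, the lysosomal acid lipase, had 6267.5 and 1690.3. Pparg had 44.4 and 48.8, near the floor, and Fabp4, a fatty acid carrier, 88.4 and 147.2 with LPS against 707.9 and 46.9 without. Of 9 retinoid genes measured 3 were higher and 1 lower, with a median of 0.50. Aldh1a2, which makes retinoic acid, had 195.2 and 1745.5, and Cyp26b1, which breaks it down, 1112.7 and 179.9. Of 16 other nuclear receptors and coregulators 6 were higher and 2 lower, with a median of 0.35. The orphan receptor genes Nr4a3 and Nr4a2 had 113.4 and 1837.8, and 22 and 344.0, Vdr, the vitamin D receptor, 112.4 and 453.1, and the coactivator gene Ppargc1b 307.2 and 78.6.

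The receptors by which phagocytes recognise microbes and debris were lower in part. Of 11 C-type lectin and asialoglycoprotein receptor genes measured, 6 were at least 2-fold lower and 2 higher, against 8.76% and 17.8% of all genes. Their median was -1.49. Clec4d and Clec4e, which bind mycobacterial glycolipid, had 11116.9 and 2491.0, and 10208.7 and 3646.3. Clec7a, the receptor of fungal beta-glucan, had 10563.2 and 3344.3. Clec4a3 and Cd302 stood at -2.25 and -2.18, against Asgr2 at 5.93. Scavenger and apoptotic cell receptors had 3 higher and 3 lower of 18, with a median of -0.28 that was 0.11 with the hybridisation controls. Msr1, which takes up modified lipoprotein, had 4626.0 and 1194.0, Lrp1 1573.0 and 467.3 and the bridging protein gene Mfge8 7097.2 and 2133.3, while the receptor kinase gene Axl had 574.7 and 2121.4.

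Macrophage markers did not move as a unit. Of 17 measured, of 21 on the array, 4 were higher by at least 2-fold and 2 lower, against 17.8% and 8.76% of all genes. Their median was -0.27, and above 0 with the hybridisation controls and with probe sets without a suffix. Beside the C1q genes, Fcgr1 was higher, with 531.8 and 1673.8. Trem2, a lipid-sensing receptor, had 2762.6 and 220.3 and the lysosomal glycoprotein gene Cd68 8902.7 and 2139.2. Lyz2, Csf1r and Adgre1 were bright on both arrays and stood between -0.47 and -0.27, and Cd163, Vsig4, Timd4 and Folr2 lay under the floor on both. Their summed signal was 62052.1 in WT LPS and 51016.4 in LXR-DKO LPS. The Fc receptor list had 4 higher and 1 lower of 8, with a median of 0.70 that was -0.39 with the higher floor, and Fcgrt, which rescues immunoglobulin from breakdown, had 172.0 and 952.2. Complement genes had 5 higher and 1 lower of 12, and a median of 0.30 that was below 0 under 3 alternatives. Cfp, properdin, had 965.4 and 4262.6 and Cd93 2640.2 and 469.9. Genes of alternative activation and arginine use had 7 higher and 2 lower of 16, with a median of 0.46. Retnla had 3.7 and 2204.4, Chil1 10.5 and 1293.3, Arg1 22.3 and 165.2, and Nos2, the inducible nitric oxide synthase, 15.3 and 217.8, so that markers taken to mark opposed states of macrophages were both higher.

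Genes of protection against oxidants had the largest share of members at least 2-fold lower among the lists. Of 31 measured genes of glutathione, NRF2-linked and peroxide defence, 19 were at least 2-fold lower and 0 higher, and the median log2 ratio was -1.54, beside 8.76%, 17.8% and 0.15 over all genes. Nqo1, the quinone reductase, had 1945.2 in WT LPS and 112.2 in LXR-DKO LPS. Hmox1, which breaks down haem, had 6094.8 and 775.0. Slc7a11, the cystine importer, had 3213.1 and 504.9. Both subunits of the enzyme that starts glutathione synthesis were lower, Gclm with 3406.6 and 660.4 and Gclc with 1396.9 and 299.4. The transferase genes Gstm2, Gstm1 and Mgst2 had log2 ratios of -2.87, -2.15 and -2.37, the thioredoxin reductase gene Txnrd1 -1.61 and the sulfiredoxin gene Srxn1 -2.44. The factor Nfe2l2, which drives many of them, and its inhibitor Keap1 differed less, at -0.57 and 0.01. The list was as low without LPS, where 18 of 30 members lay at least 2-fold lower (median -1.39), against 9.28% of all genes there.

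Genes of this kind are known to carry an antioxidant element. The letters TGACNNNGC, read on either strand, occurred in 7 of 28 windows of the list, 25%, against 14.97% of the measured genes and 12.5% of all windows. Over all windows of genes at least 2-fold lower they occurred in 16.9%, and over those at least 2-fold higher in 14.88%. Of the 7 genes of the list with a match 5 were at least 2-fold lower, beside 19 of 31 over the whole list. The window of Nqo1 held no match. The 250 bases before the start are shown for 2 of the 5, with the match in capitals, from chr1:21240335-21240584 on the plus strand for Gsta3 and chr3:122245307-122245556 on the plus strand for Gclm.
Gsta3: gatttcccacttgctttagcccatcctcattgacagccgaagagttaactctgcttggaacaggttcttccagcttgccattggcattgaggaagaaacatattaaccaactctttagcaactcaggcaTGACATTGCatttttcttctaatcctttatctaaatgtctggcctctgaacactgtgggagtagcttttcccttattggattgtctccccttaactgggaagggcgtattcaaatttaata
Gclm: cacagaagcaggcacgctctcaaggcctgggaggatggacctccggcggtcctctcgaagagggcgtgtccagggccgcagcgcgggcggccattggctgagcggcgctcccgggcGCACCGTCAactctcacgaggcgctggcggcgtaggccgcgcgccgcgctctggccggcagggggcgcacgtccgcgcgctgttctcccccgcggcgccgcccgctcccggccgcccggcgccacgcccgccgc
The match begins 121 bases before the start in Gsta3 and, on the reverse strand, 134 in Gclm. Gsta3 had a signal of 341.2 in WT LPS and 2.3 in LXR-DKO LPS, and other copies of the family share its probes in part.

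Genes of iron and of the lysosome followed. Of 13 genes of haem and iron 6 were at least 2-fold lower and 1 higher, with a median of -0.95. Alas1, the first enzyme of haem synthesis, had 10733.9 and 1228.1, the phagosomal metal transporter gene Slc11a1 4458.3 and 577.0, and Slc40a1, which encodes the iron exporter ferroportin, 769.7 and 137.9, while Tfrc, the transferrin receptor, was higher with 946.4 and 2453.3. Of 31 lysosomal genes 8 were lower and 2 higher, with a median of -0.80. The alpha-galactosidase gene Gla had 4126.0 and 427.9, the proton pump subunit gene Atp6v0d2 7283.1 and 776.9, and Atp6v1h and Atp6v1a stood at -1.83 and -1.55. Of 16 cathepsins and cystatins measured 2 were lower and 1 higher, beside 8.76% and 17.8% of all genes, with a median of -0.60. Ctsk and Ctse, an aspartic protease of DCs with 62.8 and 1431.2, were the extremes.

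Most respiratory chain genes lay within 2-fold. Of 33, 4 were at least 2-fold lower, 12.1% against 8.76% of all genes, and 0 higher, against 17.8%. The median was -0.52, or -0.20 with the hybridisation controls. Ndufa4 had 2633.1 and 738.4 and Sdhb, of complex II, 4467.2 and 1635.7. The TCA cycle genes had a median of -0.33, with 2 higher and 1 lower of 19, and glycolysis genes 0.26, or -0.03 with the same 75th percentile, with 4 higher and 3 lower of 19. Among the latter the glucose transporter gene Slc2a3 had 72.3 and 792.9 and its relative Slc2a1 3394.8 and 1412.9. Of 29 genes of the ATF4 and unfolded protein responses 12 were at least 2-fold lower and 4 higher, with a median of -0.75. The stress factor genes Ddit3 and Trib3 stood at -1.75 and -1.72 and the folding enzyme gene Pdia4 at -2.79, whereas the amino acid transporter gene Slc7a5 had 85.0 and 775.0.

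**Figure D3:**
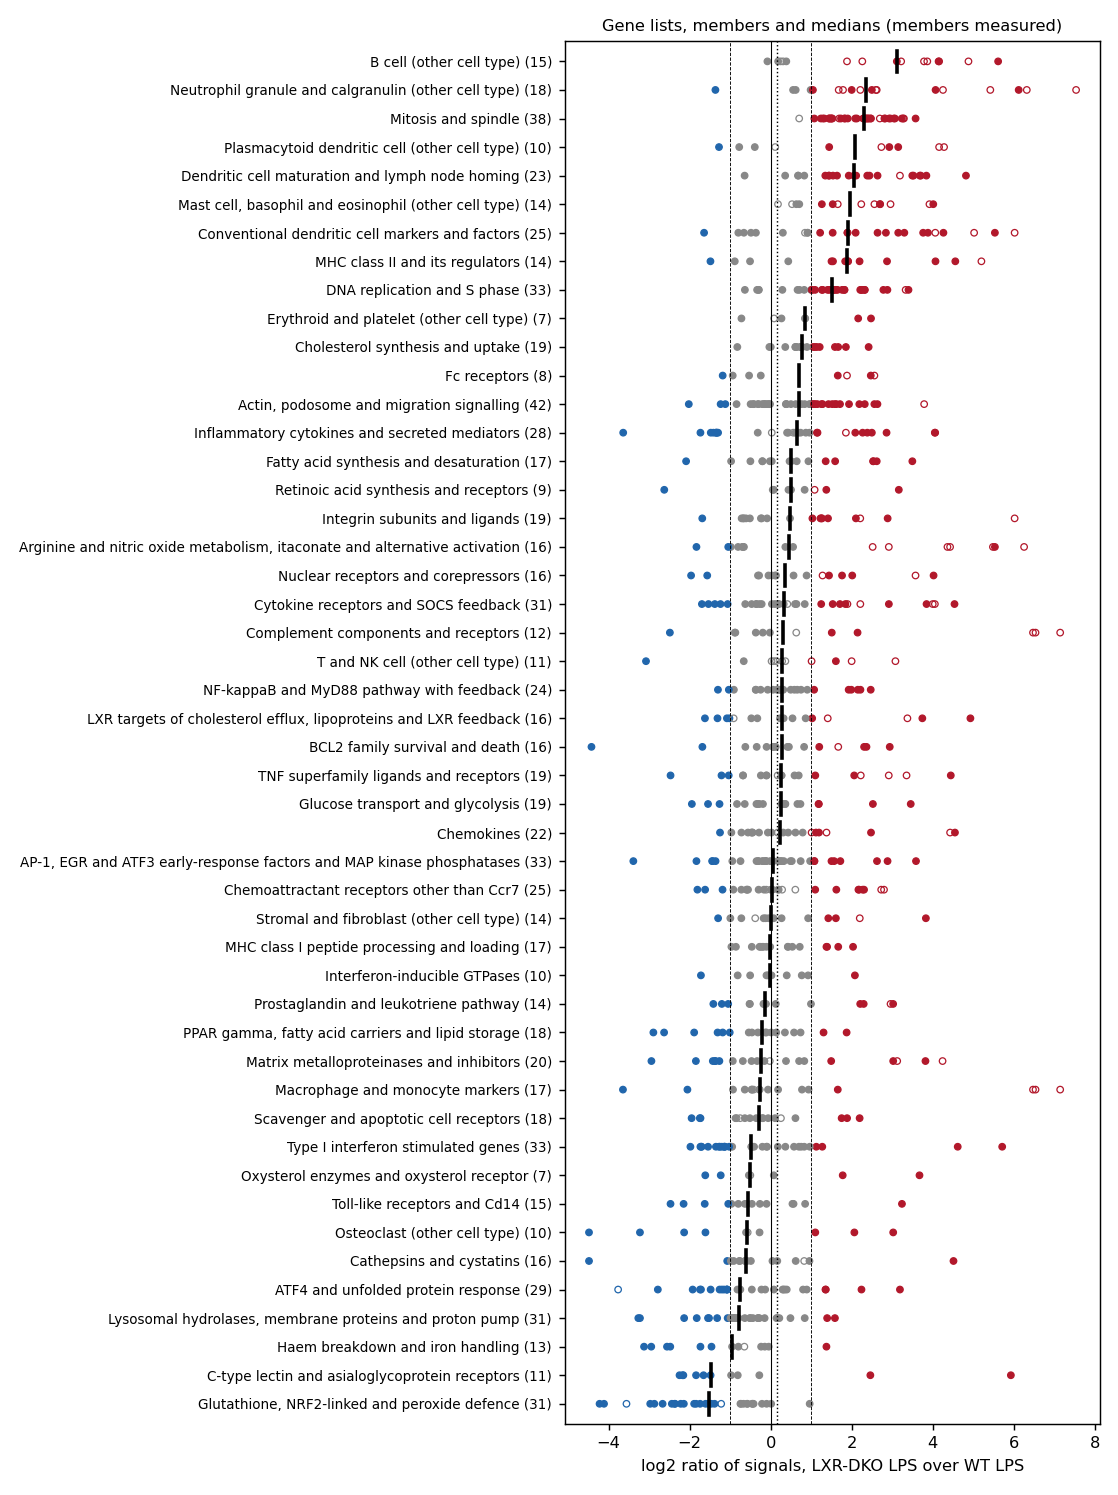
Log2 ratio of LXR-DKO LPS over WT LPS (x axis) for the measured members of 48 gene lists, sorted by median (black bars); filled circles are ratios with both signals at or above the floor, open circles lower limits, red and blue those at least 2-fold higher and lower, and the dotted line is the median over all genes, 0.15. The mitosis list, at 2.29, lies to the right nearly whole, and the glutathione and NRF2-linked list, at -1.54, has no member past 2-fold on the right.

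Genes of cell division had the largest share of members at least 2-fold higher among the lists. Of 38 mitosis and spindle genes 37 were higher by at least 2-fold and 0 lower, and the median log2 ratio was 2.29. The remaining member, the phosphatase gene Cdc25c, stood at least at 0.70. Ccnb2, a mitotic cyclin, had 71.6 in WT LPS and 853.2 in LXR-DKO LPS, with 635.2 and 1362.8 in the pair without LPS. Cdc20, which activates the complex that ends metaphase, had 102.6 and 965.7, with 875.4 and 1608.6 without LPS. Top2a, the topoisomerase of dividing cells, had 201.7 and 1562.9, with 1079.6 and 2338.1 without LPS. In each of the 3 the WT LPS array was the low one of the 4 and the other arrays lay closer together. As a list, the genes had a median response to LPS of -2.31 in WT against -0.72 in LXR-DKO, and a median difference between genotypes of 0.70 without LPS, where 10 of 38 were at least 2-fold higher.

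Replication genes showed the same with more exceptions. Of 33 measured 24 were higher by at least 2-fold and 0 lower, the median being 1.52, and of 0.47 without LPS. Mcm7, of the replicative helicase, had 171.5 and 1809.7, Tk1, the thymidine kinase, 21.5 and 290.5, and Rrm1, a subunit of the enzyme that makes deoxynucleotides, 187.7 and 867.7. The sliding clamp gene Pcna had 4872.4 and 3954.7 and E2f1 236.8 and 152.1, so that these members were not higher. Survival genes had 5 of 16 higher and 2 lower, beside 17.8% and 8.76% of all genes. Their median of 0.27 was -0.03 with the same 75th percentile. The death-promoting genes Bmf, Bcl2l11 and Bbc3 had log2 ratios of 2.94, 2.36 and 2.30, and Casp1 stood at -1.69 beside Casp4.

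Promoters of mitotic genes are known for pairs of CCAAT boxes and a CHR element, and those of replication genes for E2F elements. On either strand the letters CCAAT occurred in 24 of 32 windows of the mitosis list, 75%, against 38.6% of measured genes, and TTTGAA, the CHR letters, in 23 of 32, 71.9%, against 11.85%. Both stood together in 20 of the 32, 62.5%, and in 469 of the 9759 measured genes, 4.81%. The E2F letters TTTCCCGC occurred in 4 of 30 windows of the replication list, 13.3%, against 2.14%, and TTTGGCGC in 6 of 30, 20.0%, against 1.05%. The 250 bases before the start are shown for 3 genes with ratios among the highest of these lists. They are from chr9:70421555-70421804 for Ccnb2, chr4:118437344-118437593 for Cdc20 and chr5:138171884-138172133 for Mcm7, all on the minus strand. Capitals mark the CCAAT and CHR letters in Ccnb2 and Cdc20. In Mcm7 they mark the E2F letters only, and its CCAAT letters on the reverse strand are left in lower case.
Ccnb2: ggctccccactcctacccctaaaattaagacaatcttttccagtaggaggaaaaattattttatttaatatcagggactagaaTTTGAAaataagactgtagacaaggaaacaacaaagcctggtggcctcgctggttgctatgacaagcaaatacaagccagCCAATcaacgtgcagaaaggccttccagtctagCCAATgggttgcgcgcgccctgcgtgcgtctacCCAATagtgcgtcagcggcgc
Cdc20: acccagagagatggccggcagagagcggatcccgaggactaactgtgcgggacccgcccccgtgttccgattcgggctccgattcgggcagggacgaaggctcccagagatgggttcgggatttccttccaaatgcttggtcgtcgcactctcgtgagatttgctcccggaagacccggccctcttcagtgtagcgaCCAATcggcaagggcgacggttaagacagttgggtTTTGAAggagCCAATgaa
Mcm7: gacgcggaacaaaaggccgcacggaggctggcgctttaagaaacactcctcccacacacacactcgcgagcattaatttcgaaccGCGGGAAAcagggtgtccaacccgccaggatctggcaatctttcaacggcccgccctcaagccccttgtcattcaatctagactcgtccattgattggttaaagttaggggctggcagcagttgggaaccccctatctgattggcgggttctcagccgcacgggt
In Ccnb2 3 CCAAT boxes began 87, 54 and 21 bases before the start, in Cdc20 the boxes at 53 and 8 flanked the CHR letters at 18, and in Mcm7 the E2F letters, on the reverse strand, began at 165. Over all windows of genes at least 2-fold higher the CHR letters occurred in 14.3%, and over those at least 2-fold lower in 12.6%.

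Markers of some other cell types were higher in LXR-DKO LPS as well, those of neutrophils, mast cells and their kin, B cells and plasmacytoid DCs in the main. Of 18 neutrophil granule and calgranulin genes measured, of 19 on the array, 14 were higher by at least 2-fold and 1 lower, the median being 2.35. Their summed signal was 17323.2 in WT LPS and 39086.0 in LXR-DKO LPS, and 9 and 18 of them reached the floor. Stfa2l1 had 6.0 and 1236.6, Camp 53.3 and 894.0 and S100a8 1817.2 and 7255.6, and the collagenase gene Mmp8 was lower, with 9716.4 and 3769.1. Mast cell, basophil and eosinophil markers had 10 of 14 higher and 0 lower, with a median of 1.94 and sums of 948.4 and 3963.3. Cpa3, a mast cell protease, had 43.8 and 706.2 and Mcpt8, of basophils, 15.1 and 436.5, while 8 of 22, among them Tpsab1, Cma1 and Il4, were under the floor on both arrays.

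B cell markers had the highest median of the lists as deposited, 3.11, with 10 of 15 higher and 0 lower. Their sums were 717.0 and 9267.6, and 6 and 15 reached the floor. Ms4a1, which encodes CD20, had 19.1 and 851.0, and Cd79b and Cd79a, of the B cell receptor, 22.4 and 420.7, and 1.2 and 397.7. The defining factor gene Pax5 had 28.9 and 37.7 and Ebf1 8.6 and 34.2, both near the floor. Without LPS the median was 1.39, with 8 of 13 measured higher. Plasmacytoid DC markers had 6 of 10 higher and 1 lower, with a median of 2.09 and sums of 4610.1 and 8937.4. The highest, at least at 4.28, was the kallikrein gene Klk1b27, whose near-identical copies share probes. Irf8, at 3.15, is also among the conventional DC genes, and Bst2 was the lower one at -1.28. Siglech, the defining marker of plasmacytoid DCs, had 6.3 and 31.2.

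T and NK cell markers had 4 of 11 higher and 1 lower, beside 17.8% and 8.76% of all genes. They had a median of 0.28 and sums of 849.2 and 1281.9. Of 19 on the array 8, with Cd3e, Cd4 and Ncr1 among them, were under the floor on both arrays. Klrk1, an NK receptor, had 3.2 and 243.9 and Cd28 461.6 and 54.6. Erythroid and platelet markers had 2 of 7 higher and 0 lower, with a median of 0.84 and sums of 5116.6 and 4082.5. Stromal markers had 4 of 14 higher and 1 lower, with a median of 0.01 that was below 0 under 3 alternatives, and sums of 2254.6 and 4398.0. Fibronectin, Fn1, had 131.0 and 1861.5. Osteoclast markers had 3 of 10 higher and 4 lower, with a median of -0.59 and sums of 16713.3 and 4400.8. The part of these cell types in the other groups was not tested. The SLAM family receptors of leukocytes, last of the lists, had 3 of 9 higher and 4 lower, with a median of -0.64, from Slamf1 with 75.4 and 1284.8 to Slamf6 with 813.9 and 100.5. Class I antigen processing genes had 4 of 17 higher and 0 lower, and a median of -0.01 that was above 0 under 4 alternatives, led by the peptide transporter gene Tap1 with 327.4 and 1338.1.

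**Figure D4:**
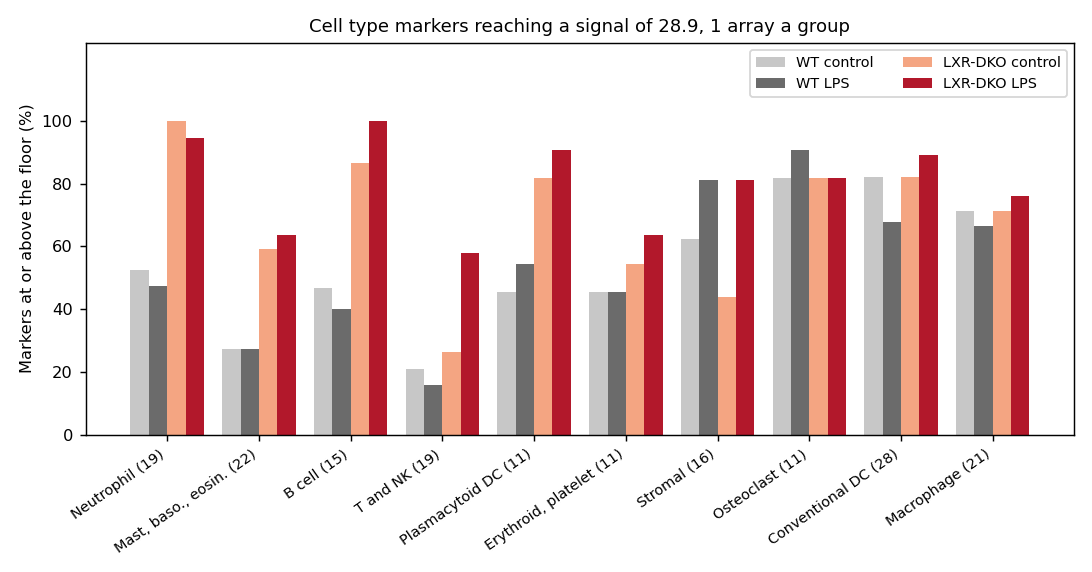
Percent of the markers of each cell type on the array (number in brackets) that reached the floor of 28.9, for the 4 groups of 1 array each (bars from 0). With LPS all 15 B cell markers reached it in LXR-DKO and 6 did in WT, and of 19 neutrophil markers 18 did against 9.

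The difference with LPS was then set beside that without it, from arrays that the pairs do not share. Of 11264 genes measured in both pairs, 1163 were higher by at least 2-fold without LXRs in both and 693 lower in both. The former made up 56.2% of the genes higher with LPS and 78.4% of those higher without it, and the latter 66.8% and 64.1%. Over the 9623 genes that reached the floor in all 4 groups, and which are no independent replicates, the log2 ratios of the pairs correlated with r = 0.83, as a description. Both pairs set the same genotypes against each other, so a difference between the LXR-DKO and WT cultures that is there without LPS enters both ratios.

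Some genes differed with LPS alone. There were 196 genes at least 2-fold higher with LPS and less than 0.32 apart on the log2 scale without it, and 54 lower. The one with the largest ratio was Itm2a, a membrane protein of lymphocytes, with 82.8 and 2213.6 with LPS and 37.3 and 46.5 without. Tspoap1 had 43.7 and 563.3, and Cblb, a ubiquitin ligase that restrains T cell activation, 144.9 and 913.4. Icos, the T cell costimulatory receptor, had 64.7 and 316.9. Itm2a, Tspoap1, Cblb and Icos were highest on the LXR-DKO LPS array.

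The other 6 of the 10 belonged to cell division or DNA repair as far as they are known, Fignl1, Rad51ap1, Ddias, Lrr1, Anln and Rrm1, at 7.28-fold to 4.62-fold. In Fignl1 the WT LPS array was the low one, with 40.8 against 312.7, 348.5 and 297.1 on the others. Lower with LPS alone were Map6, Abcb4, Zbtb7a, Ric8b, Ptx3, Clcn4, Mettl7a1, Ifngr2, Otub1 and Slx4ip, at 3.20-fold to 2.57-fold. Ptx3, a soluble pattern receptor, had 3018.6 and 1131.6 with LPS and 1374.2 and 1143.3 without, so that the WT LPS array was the high one. Zbtb7a, a transcription repressor, kept its direction with its brightest probe set but had 0.87 with probe sets without a suffix.

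**Figure D5:**
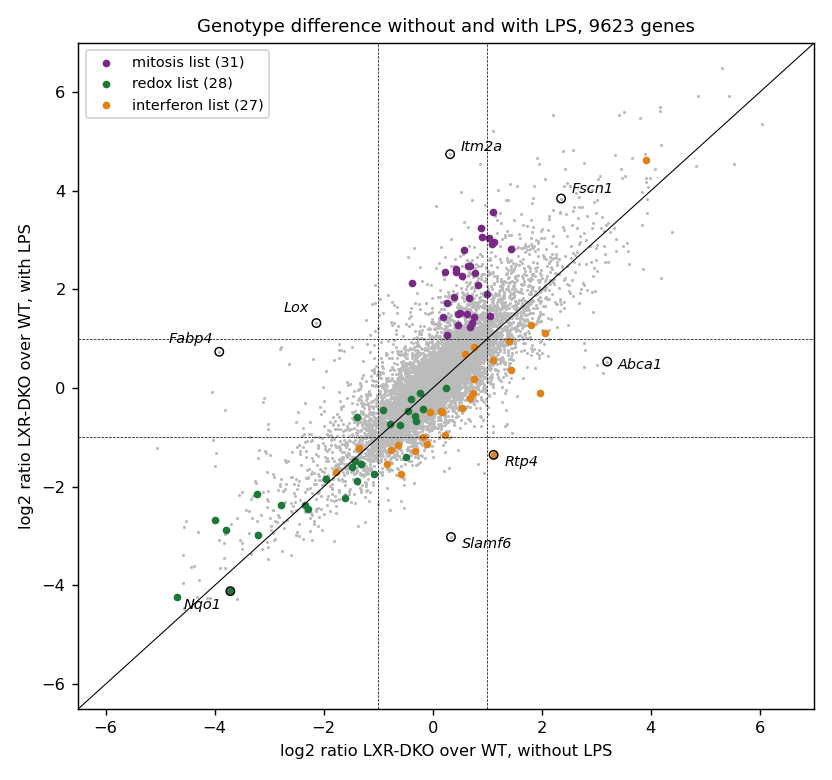
Log2 ratio of LXR-DKO over WT without LPS (x axis) and with LPS (y axis) for the 9623 genes that reached the floor in all 4 groups; grey points are genes, coloured points members of 3 lists, the solid line marks equal ratios and the dashed lines 2-fold. The mitosis genes lie above the line of equal ratios, with medians of 2.29 with and 0.70 without LPS over all measured members, most interferon genes lie below it, and the redox genes lie along it.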

How the data were processed

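RNA of 4 dendritic cell samples, 1 per group, was measured on 3′ expression arrays. The deposited table gives an intensity for each probe set and array, summarised by the authors with MAS5, per the submitters' processing notes. The MAS5 version and settings are not given in the sources used here, and the deposited values were used with no further scaling.

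Of 45101 probe sets 64 were controls, 932 others carried several gene symbols and 9160 were not listed with a symbol. Of the 34945 left, 34741 matched the RefSeq gene table of GRCm38.p6, and no symbol changed. The floor was the pooled median signal of 28.9. Ratios were taken on the log2 scale, and a 2-fold difference was called. The calculation was tested on simulated data.

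Named genes were the targeted genes, the 15 largest ratios each way above the floor, the 10 largest limits each way, up to 8 per list with others that define it or show both directions, and the genes that differed with LPS alone or in opposite ways. A few list members near 0 were added after their values were seen. The genes and the 53 lists were chosen with earlier results of these data known. Motifs were searched on both strands of RefSeq promoter windows, and the windows printed were chosen after values were seen. Other scalings, floors of 8.8 and 177.4, a pseudocount of 16 with no floor, other probe set rules, and leaving out X and Y genes were tried. Python 3.11.15, numpy 2.4.6, pandas 2.3.3 and matplotlib 3.10.9 were used.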

Additional observations from a re-analysis of the deposited data

Results flagged for a closer look

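The 10 genes named here were at least 2-fold apart in opposite directions with and without LPS, and the difference between the pairs was not tested, with 1 array a group. Of 11264 genes measured in both pairs 15 did so. The antiviral gene Rtp4 had a log2 ratio of -1.35 with LPS and 1.12 without, with signals of 3549.9 in WT LPS and 1389.0 in LXR-DKO LPS. Sh3tc1 likewise had -1.01 and 2.17.

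The other 8 were higher in LXR-DKO with LPS and lower without it. Lox, which crosslinks collagen, had 1.32 and -2.13, with 494.5 in WT LPS and 1232.7 in LXR-DKO LPS. The growth factor gene Pdgfc had 2.09 and -1.05, and the early-response gene Egr3 1.72 and -1.06. Ttc39a had 1.71 and -1.12, and the phosphatase gene Dusp2 1.07 and -1.15. The protease inhibitor genes Serpinb1a and Serpinb9 were apart too. Serpinb1a had 1.39 and -1.23, and Serpinb9 1.22 with LPS and signals of 725.3 in WT and 361.8 in LXR-DKO without it. Galc, a lysosomal galactosidase, had 1.16 and -1.06, but its probe sets disagreed.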

How the results depend on the processing

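Of 391 named genes past 2-fold, 387 kept their direction under every alternative that gave a value. The exceptions were Xaf1, at -5.55 with the same 75th percentile, Trim34a and Zbtb7a, at 1.13 and 0.87 with probe sets without a suffix, and Galc, at -0.0119 with the median over probe sets. In all 4 another probe set replaced or joined the first. The size of the ratios was less stable than their direction. Of all 457 named genes, 227 moved by at least 0.54 on the log2 scale under at least 1 alternative. Slc2a3, at 3.46 in the main setting, had a lowest alternative of 0.01. Of the 53 lists 11 had medians past 2-fold, none of which changed sign, while 17 others changed sign under at least 1 alternative.

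The count of genes at least 2-fold lower was 1724 with the same 75th percentile, 622 with the hybridisation controls, 1587 with the lower floor and 685 with the higher floor, which also left 947 genes higher. Genes apart the same way with and without LPS numbered 948 with the higher floor. Genes apart in opposite ways numbered 121 with the lower floor, 1 with the higher and 8 with the median over probe sets. With the lower floor the list medians were 0.0748 for oxysterol genes, 0.78 for Schlafen genes, -0.90 for lectins, 0.10 for Fc receptors, 3.50 for neutrophil and 1.03 for T and NK markers, the last 1.44 with no floor. With the higher floor they were -0.39 for Fc receptors, 2.14 for complement, 1.04 for mitosis, 0.93 for mast cell, 1.54 for B cell, 1.44 for plasmacytoid and -1.88 for osteoclast markers. With the median over probe sets B cell markers had 2.52 and erythroid markers 0.26, and with probe sets without a suffix mast cell markers had 2.56 and plasmacytoid markers 2.73. A floor changes which dim genes are measured and bounds their ratios; the cause of the other shifts was not tested.

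No paired analysis was possible because each group held 1 sample, and leaving out a replicate was not possible. Signals below the floor of 28.9 gave limits in place of ratios.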
